A study of Mus musculus with 2 samples.

Results

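Type 1 dendritic cells of gonadal white adipose tissue (gWAT) were examined as the cells of the stromal vascular fraction (SVF) that carried RNA of Xcr1 and Clec9a. They were selected on UMI counts (unique molecular identifiers, each standing for a captured transcript) in barcodes that passed a minimum of 500 detected genes and held no more than 10% mitochondrial UMIs. A member had at least 2 UMIs of Xcr1 and Clec9a together, at least 10 of Cd74, at most 3 of C1qa, C1qb and C1qc together, under 10 of Dcn and none of Cd79a or Cd3e. This gave 120 cells of 4839 kept barcodes (11252 deposited), of which 92 came from the littermate control library and 28 from the Adipo-Pgam1 KO library. The SVF, obtained by digesting gWAT, holds stromal, vascular and immune cells. Both libraries came from male mice on a C57BL/6 background at 13 weeks of age by the labels. Adipo-Pgam1 KO mice carried floxed Pgam1 alleles and Adipoq-Cre, a Cre recombinase driven by the promoter of the adipocyte hormone adiponectin, so that dendritic cells are not the cells this driver targets. The control was labelled as littermate wildtype and, by the methods of the study, carried the floxed alleles without Cre. There was 1 library per genotype, and the number of mice behind each was not given in the sources used here. Cells of 1 library are not replicates, so no test was run. Every interval below is a 95% interval that covers counting error only, and genotype and library cannot be told apart.

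Conventional dendritic cells take up antigen and present it to T cells, and they develop under the growth factor receptor FLT3. Type 1 cells depend on the transcription factors IRF8 and BATF3 and recognise dead cells through the lectin CLEC9A. They respond through the chemokine receptor XCR1 to XCL1 from CD8 T and NK cells. They are known for cross-presentation, the loading of engulfed antigen onto MHC class I. Type 2 cells depend on IRF4, carry SIRPA and lectins such as CD209A and CLEC10A, and present mainly to CD4 T cells. The comparison here was with Cd209a cells, which met the same limits but had at least 2 Cd209a UMIs and under 2 of Xcr1 and Clec9a. There were 167 of them in the control library and 31 in the KO library.

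Members had a median of 13913 UMIs per cell in the control library (3902 to 33012) and 20781 in the KO library (1221 to 36493), and Cd209a cells had 12219 and 17600. Summed over cells, members held 1322220 and 530284 UMIs. Levels are given as CPM, the UMIs of a gene in a group scaled to 1000000 UMIs. No batch was named in the labels. The libraries shared 9 barcodes, none of them members. Over all barcodes the haemoglobin gene Hbb-bs was at 32871 CPM in the control library and 56721 CPM in the KO library.

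Members made up 2.37% of kept control barcodes (exact Clopper-Pearson interval 1.92% to 2.90%) and 2.92% of kept KO barcodes (1.95% to 4.20%). Of the members and Cd209a cells together, members were 35.5% (29.7% to 41.7%) in the control library and 47.5% (34.3% to 60.9%) in the KO library. Without the members that also carried Cd209a, the shares were 1.96% (1.55% to 2.44%) and 2.82% (1.87% to 4.07%) of kept barcodes, and 31.3% and 46.6% of both groups. In each case the intervals of the libraries overlapped. At the limit of 2 UMIs, 12 control and 4 KO members had exactly 2, and a further 36 and 5 cells met every other limit with 1 UMI and stayed outside. In the control, the cells with exactly 2 UMIs had 1526 CPM of Irf8 and 819 CPM of Cd209a, and those with 1 UMI had 128 and 997 CPM. The KO library had too few such cells for a group value, since all 40 Cd209a UMIs of the 4 cells with exactly 2 lay in 1 cell, as did all 25 of the 5 cells with 1.

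The label was checked against its markers. Both Xcr1 and Clec9a were present in 71 control and 22 KO members, Xcr1 alone in 5 and 2, and Clec9a alone in 16 and 4. Xcr1, on chromosome 9 of GRCm38 from 123852315 to 123862029, had 488 UMIs in control members (median 5 per cell, 0 to 18) and 173 in KO members (median 5, 0 to 19). Clec9a, on chromosome 6 from 129408862 to 129424763, had 387 UMIs (median 3.5, 0 to 12) and 147 UMIs (median 4, 0 to 16). These counts chose the cells and are a description. Flt3 was not used and was found in 93.5% of control members (86.3% to 97.6%) and 92.9% of KO members (76.5% to 99.1%). Zbtb46, a transcription factor of conventional dendritic cells, was found in 65.2% (54.6% to 74.9%) and 71.4% (51.3% to 86.8%).

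The markers did not hold for every member. Of the control members, 16 also carried at least 2 Cd209a UMIs, and 15 of these had no Xcr1. Summed over the 16, Xcr1 was at 19.6 CPM, Irf8 at 479 CPM and Naaa at 210 CPM, whereas Cd209a was at 1223 CPM, Mgl2 at 1414 CPM and Clec10a at 509 CPM. The 16 were not alike, since all their Irf8 UMIs lay in 4 cells, with 39, 38, 20 and 1 UMIs. The other 76 control members had 433 CPM of Xcr1, 2497 CPM of Irf8 and 1930 CPM of Naaa, with 2.68 CPM of Cd209a, 7.16 CPM of Mgl2 and 1.79 CPM of Clec10a. As a group these 16 cells go against the label, carrying RNA of Clec9a and of type 2 genes. Among the cells with the highest doublet scores were 1 of these 16, 7 of all 92 control members and 265 of 3881 kept control barcodes (6.83%). A fixed share of barcodes was taken by score, so 1 of 16 cells cannot decide whether the 16 are doublets, which was not tested. In the KO library 1 of 28 members carried at least 2 Cd209a UMIs. Gene counts, several list counts and the named genes that moved most are also given without these cells, a choice made after seeing the data.

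**Figure D1:**
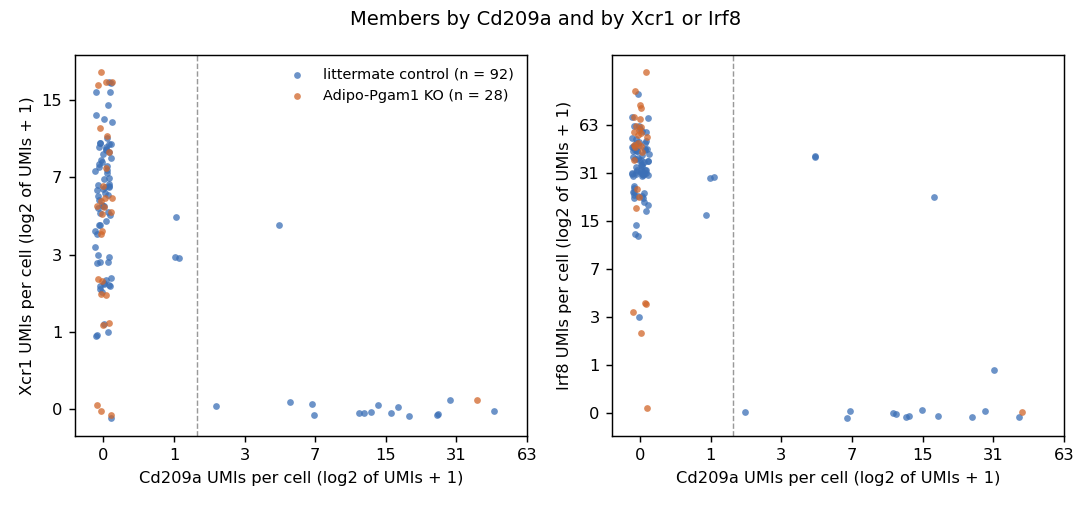
UMIs per member cell of Cd209a (x axis) against Xcr1 (left) and Irf8 (right), on log2 axes of UMIs + 1 with a small random shift, for 92 littermate control and 28 Adipo-Pgam1 KO cells. To the right of the dashed line, at 2 or more Cd209a UMIs, lie 16 control cells and 1 KO cell, and 15 and 1 of them have no Xcr1 UMI.

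Members were compared with Cd209a cells gene by gene within each library. A gene was measured with at least 50 UMIs over both groups in the control library and at least 20 in the KO library, which 5644 genes were once the genes of the selection were left out. Of these, 204 (3.61%) were higher in members by a factor of 2 or more in both libraries and 251 (4.45%) were lower by as much in both. The control alone had 241 genes past 2-fold higher and 336 lower. In the KO library, whose ratios were not used to find them, 204 of the 241 were past 2-fold and 237 had the same sign, and 251 and 320 of the 336. Over all 5644 measured genes, the KO library alone had 498 past 2-fold higher and 547 lower. For these counts, and in the log2 ratios, UMI counts under 3 were set to 3. The median log2 ratio over all measured genes was −0.059 in the control library and −0.031 in the KO library. Without the members that carried Cd209a, 230 genes were higher in both libraries (199 of them in the first count) and 303 lower (241).

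**Figure D2:**
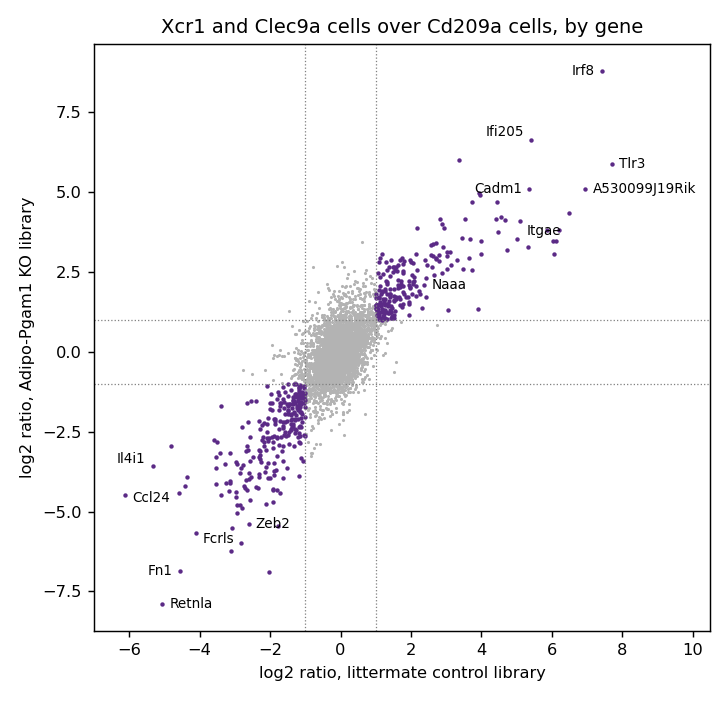
Log2 CPM ratio of Xcr1 and Clec9a cells to Cd209a cells for each of 5644 genes in the control library (x axis) and the KO library (y axis). Purple points are the 204 genes past 2-fold higher and the 251 past 2-fold lower in both libraries, dotted lines mark 2-fold, and Irf8 lies at the upper right and Retnla at the lower left.

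Of 22 listed type 1 dendritic cell genes that the selection did not use, 21 were measured, 16 were at least 2-fold higher in members in both libraries and none was lower. The median log2 ratio of the list was 3.02 in the control library and 3.05 in the KO library. All 16 were also higher without the members that carried Cd209a. Irf8, the lineage transcription factor, lies on chromosome 8 from 120736358 to 120756694. It had 2889 UMIs in control members (2185 CPM, exact Poisson interval 2106 to 2266) and 28 in Cd209a cells (12.7 CPM). In the KO library it had 1277 UMIs (2408 CPM, 2278 to 2544) and 3 UMIs (5.46 CPM). Its log2 ratio was 7.43 (6.90 to 8.02) in the control library and 8.79 (7.24 to 11.1) in the KO library. Per cell, Irf8 had a median of 32.5 UMIs in control members (0 to 98) and 47 in KO members (0 to 128), against a median of 0 and a maximum of 3 in control Cd209a cells, so that the 2 groups overlapped only in cells with few or no UMIs. Id2, a repressor of E proteins needed by type 1 cells, had log2 ratios of 2.44 (2.29 to 2.59) and 2.29 (2.01 to 2.57). Batf3, a partner of IRF8 in these cells, had smaller log2 ratios, 0.11 (−0.12 to 0.34) and 0.46 (0.03 to 0.89).

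Among surface molecules and receptors, Tlr3, a sensor of double-stranded RNA, had 372 UMIs in control members and 0 in Cd209a cells, a log2 ratio of at least 7.70 against a limit of 3 UMIs. In the KO library it had 167 UMIs against 1. A UMI of it was seen in 78.3% of control members (68.4% to 86.2%) and 85.7% of KO members (67.3% to 96.0%). Cadm1, an adhesion molecule, had 367 UMIs against 15 in the control library and 162 against 5 in the KO library, with log2 ratios of 5.35 (4.61 to 6.21) and 5.07 (3.82 to 6.71). Itgae, the integrin chain CD103, had 61 UMIs against 0 and 49 against 0, log2 ratios of at least 5.09 and 4.08. It was found in only 25.0% of control members (16.6% to 35.1%) and 46.4% of KO members (27.5% to 66.1%). The chemokine receptor Cxcr3 had 105 UMIs against 1 and 40 against 1. Btla, an inhibitory receptor, had log2 ratios of 3.02 (2.48 to 3.60) and 3.11 (2.11 to 4.29). The integrin chain Itgax (CD11c) was lower in members, at −0.79 (−1.08 to −0.50) and −0.59 (−1.15 to −0.05), and stayed under 2-fold.

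Of the genes for enzymes and trafficking, Naaa, an acid amidase, had 1664 CPM in control members and 323 CPM in Cd209a cells, and 1727 and 404 CPM in the KO library. Its log2 ratios were 2.37 (2.24 to 2.49) and 2.10 (1.88 to 2.32). Ppt1, a lysosomal thioesterase, had 4.56 (4.26 to 4.87) and 4.22 (3.67 to 4.82), and Rab7b, a small GTPase, 4.66 (4.15 to 5.21) and 4.13 (3.38 to 4.99). Wdfy4, which is needed for cross-presentation, had 2.56 (2.37 to 2.75) and 3.02 (2.64 to 3.42). Gcsam had 132 UMIs against 0 in the control library and 40 against 0 in the KO library, and Snx22 had 120 against 1 and 24 against 0. Flt3 and Zbtb46 were both higher in members by less than 2-fold, with log2 ratios of 0.86 (0.63 to 1.08) and 0.55 (0.12 to 0.99) for Flt3, and 0.92 (0.55 to 1.29) and 0.82 (0.10 to 1.56) for Zbtb46.

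**Figure D3:**
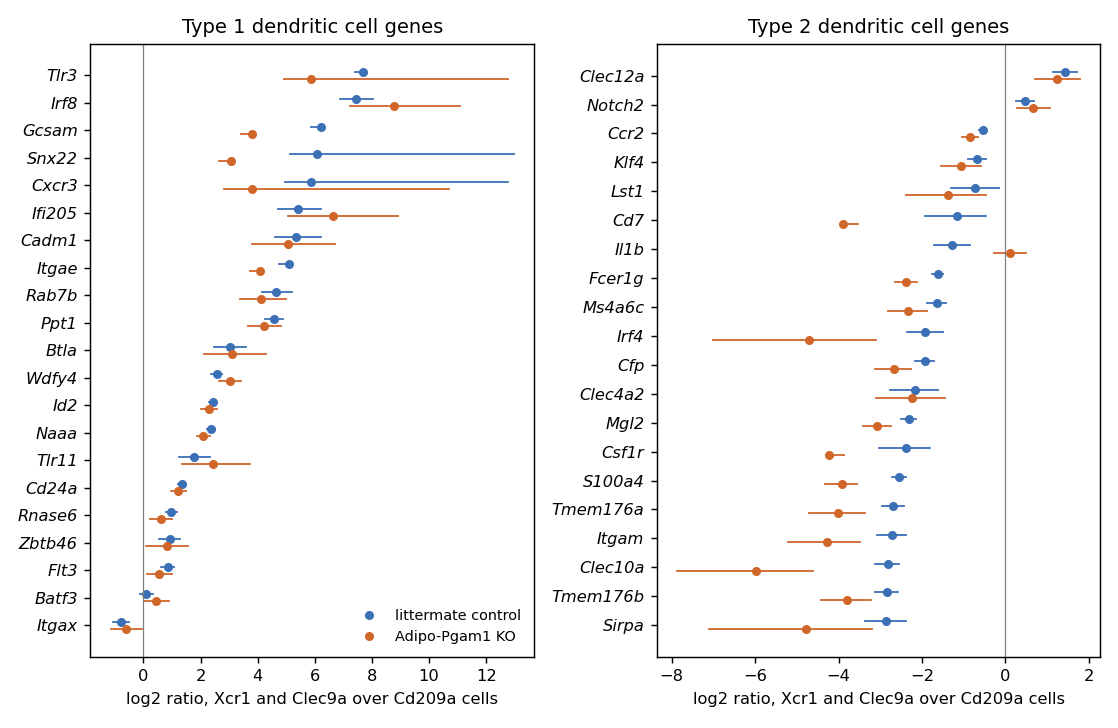
Log2 CPM ratio of Xcr1 and Clec9a cells to Cd209a cells for the measured type 1 genes (left, 21 genes) and type 2 genes (right, 20 genes) in the control (blue) and KO library (orange), with exact conditional 95% intervals of the counts. Where a group had 0 UMIs the interval has a bound on 1 side only and the point is set against 3 UMIs, and 16 type 1 genes lie past 1 in both libraries.

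The shares of cells with a UMI were compared at equal depth by drawing 3000 UMIs from each cell. This left out 4 KO members and no control member, and 3 control and 2 KO Cd209a cells. Irf8 was then found in 84.8% of control members (75.8% to 91.4%) and 95.8% of KO members (78.9% to 99.9%), against 4.88% (2.13% to 9.39%) and 3.45% (0.087% to 17.8%) of Cd209a cells. In fibroblasts and other cells with at least 10 Dcn and under 10 Cd74 UMIs, which should lack it, the shares were 2.74% and 3.17%. These Dcn cells had unthinned medians of 11557 and 15250 UMIs, and the drawing left out 142 and 47 of them. Naaa was less restricted, with 87.0% and 100% of members, 51.8% and 55.2% of Cd209a cells and 20.0% and 18.6% of the Dcn cells. Tlr3 was found in 54.4% and 62.5% of members, in 0 of 164 and 0 of 29 Cd209a cells, and in 4.59% and 6.34% of the Dcn cells. Flt3 was found in 47.8% and 41.7% of members, in 37.8% and 27.6% of Cd209a cells and in none of the Dcn cells.

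**Figure D4:**
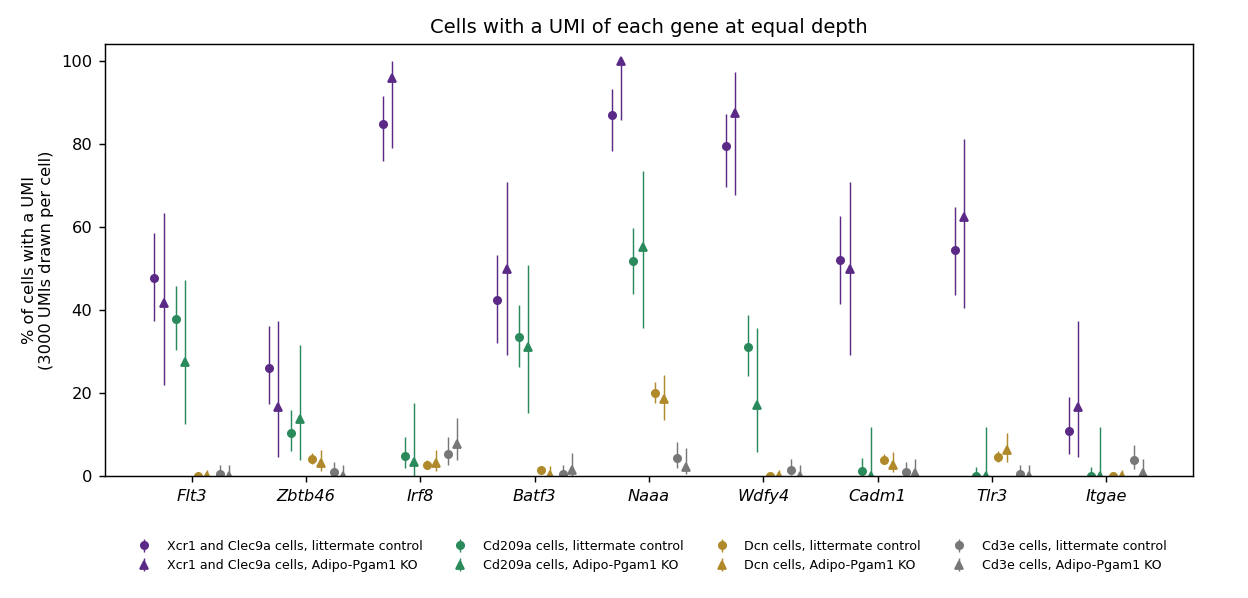
Share of cells with at least 1 UMI of each gene after 3000 UMIs were drawn per cell, by library, with exact Clopper-Pearson 95% intervals. The groups are members, Cd209a cells, Dcn cells and Cd3e cells. Dcn cells had at least 10 Dcn and under 10 Cd74 UMIs. Cd3e cells had at least 2 Cd3e UMIs and under 10 each of Cd74 and Dcn. A UMI of Irf8 was present in 84.8% of control members and 95.8% of KO members, and in under 10% of each other group.

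Some genes were also largely held by members among all kept cells. Members had 3.99% of the UMIs of kept control barcodes and 5.46% of those of the KO library. They held 52.0% of Irf8 UMIs in the control library (50.7% to 53.3%) and 56.0% in the KO library (53.9% to 58.0%). For A530099J19Rik, a gene listed without a named function, the shares were 84.0% (79.0% to 88.2%) and 86.1% (78.4% to 91.8%), and for Gcsam 83.5% (76.8% to 89.0%) and 63.5% (50.4% to 75.3%). Other genes were shared widely, and members held 7.77% of Ifi205 UMIs in the control library and 13.1% in the KO library.

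Ranked in the control library alone, the 15 largest ratios were those of Tlr3, Irf8, A530099J19Rik, Fcrla, Gcsam, P2ry14, Snx22, Dbn1, Cxcr3, Ifi205, Cadm1, Pdia5, Itgae, Agpat3 and Fzd1. A530099J19Rik had 221 UMIs in control members and 0 in Cd209a cells, and 99 and 0 in the KO library. Fcrla, an Fc receptor-like protein known from B cells, had 162 against 3 and 58 against 3 UMIs. P2ry14, a receptor for UDP-sugars, had 165 against 4 and 63 against 6. Each of the 15 was also past 2-fold in the KO library. Ifi205 belongs to a family of near-identical genes, so its counts are uncertain. The receptor tyrosine kinase Kit had 168 UMIs against 13 and 74 against 1, a log2 ratio of 4.43 (3.62 to 5.37) in the control. The mast cell genes Cpa3 and Mcpt4 gave little RNA beside it, with Cpa3 at 0 in members of both libraries and Mcpt4 at 0 in those of the KO library.

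The start regions of the markers, the listed type 1 genes and these top genes were examined because type 1 cells are known for IRF8. Not all were raised in members. Flt3, Zbtb46, Batf3, Itgax and Rnase6 were not past 2-fold higher in both libraries, and Plpp1 was not measured there. RefSeq promoters (GRCm38.p6, 250 bases before to 50 after the start) were found for 25 of 31 genes, the selection markers, the listed type 1 genes and the 15 above, with 32 promoters in all. Both strands were searched. The composite motif of an ETS and an IRF factor, GGAANNGAAA, was in none of the 32, against 2.72% of 32851 promoters. The AP-1 motif TGANTCA was in 12.5% (4 promoters, of Zbtb46, Itgax and P2ry14), against 7.81%. The repeat GAAANNGAAA, which interferon regulatory factors can bind, was in 15.6% (5 promoters, of Ifi205, Tlr11, Rnase6 and Fcrla), against 3.44%. The Rnase6 promoters with the repeat overlap, and the same site is counted in each. These are descriptions of letters in a short window and say nothing of binding. The 250 bases before the start are given for 3 of them on the strand of the gene, with the repeat in capitals: Tlr11 at chr14:50357664-50357913 on the forward strand, Fcrla at chr1:170927584-170927833 and Ifi205 at chr1:174031756-174032005 on the reverse strand.
Tlr11: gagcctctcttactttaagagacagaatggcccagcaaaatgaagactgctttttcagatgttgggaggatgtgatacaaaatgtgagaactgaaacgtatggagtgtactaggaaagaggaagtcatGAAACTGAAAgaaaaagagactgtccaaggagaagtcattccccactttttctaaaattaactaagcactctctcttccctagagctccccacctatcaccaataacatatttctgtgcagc
Fcrla: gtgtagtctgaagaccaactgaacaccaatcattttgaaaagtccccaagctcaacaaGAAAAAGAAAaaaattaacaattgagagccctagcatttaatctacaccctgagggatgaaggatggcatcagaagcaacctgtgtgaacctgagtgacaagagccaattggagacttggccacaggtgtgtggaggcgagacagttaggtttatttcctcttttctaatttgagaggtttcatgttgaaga
Ifi205: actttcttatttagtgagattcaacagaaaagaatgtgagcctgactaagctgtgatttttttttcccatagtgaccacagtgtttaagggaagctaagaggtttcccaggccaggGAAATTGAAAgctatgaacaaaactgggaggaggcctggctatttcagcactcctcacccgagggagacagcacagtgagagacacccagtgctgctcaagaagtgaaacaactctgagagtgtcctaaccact

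Tlr11, a receptor for a parasite protein, had 92 UMIs in control members against 45 in Cd209a cells and 42 against 8 in the KO library, log2 ratios of 1.77 (1.24 to 2.32) and 2.44 (1.34 to 3.75). Of 9 measured Toll-like and C-type lectin receptors, 5 were past 2-fold higher in both libraries (Tlr3, Tlr11, Tlr13, Clec12a and Ly75) and 4 lower (Clec4a1, Clec4a2, Clec4a3 and Mrc1). The list thus lay on both sides of 0, and its median log2 ratio of 1.28 in the control library and 1.24 in the KO library turned negative in several other settings. Ly75 (DEC-205), an uptake receptor, had 47 UMIs against 5 and 24 against 0.

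Type 2 dendritic cell genes lay the other way. Of 23 listed, 20 were measured, 14 were at least 2-fold lower in members in both libraries and 1 was higher, with a median log2 ratio of −1.93 in the control library and −2.88 in the KO library. The higher gene was Clec12a, an inhibitory lectin, at 1.42 (1.13 to 1.71) and 1.24 (0.71 to 1.79). Sirpa, the receptor for CD47, had 38 UMIs in control members and 459 in Cd209a cells, and 3 and 86 in the KO library. Irf4 had 54 against 341 and 3 against 81. Clec10a had 106 against 1257 and 4 against 262. Part of the control members' RNA of these genes came from the 16 cells that carried Cd209a, which held 98.1% of Clec10a, 75.9% of Irf4 and 65.8% of Sirpa UMIs of control members. Without them the log2 ratio in the control moved from −2.83 to −7.73 for Clec10a, from −1.92 to −3.73 for Irf4 and from −2.85 to −4.16 for Sirpa.

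The 15 smallest ratios in the control were those of Ccl24, Il4i1, Retnla, Sdc4, Fabp5, Fn1, Nrp2, Pilra, Fcrls, Sirpb1b, Gda, Ear2, Emilin2, Ticam2 and Fgr. Retnla, a secreted protein of alternatively activated myeloid cells, had 138 UMIs in control members and 7693 in Cd209a cells, and 11 and 2715 in the KO library. Its log2 ratios were −5.06 (−5.31 to −4.82) and −7.90 (−8.90 to −7.05). Fibronectin (Fn1) had 34 against 1349 and 4 against 481 UMIs. All 15 were past 2-fold lower in the KO library too. Of 7 measured macrophage markers 5 were lower in members in both libraries (Adgre1, Lyz2, Mrc1, Apoe and Cd14). Summed over the 12 listed, that marker list was at 1339 CPM in control members and 3155 CPM in Cd209a cells, and at 1092 and 5623 CPM in the KO library, with Mertk at 0 in members of both libraries. The part of macrophage RNA in the lower genes was not tested. Marker lists of further cells gave low sums in members, with 37.1 CPM in the control library and 9.43 CPM in the KO library for 12 T and NK cell genes, 15.1 and 7.54 CPM for 6 endothelial genes and 8.32 and 3.77 CPM for 5 mesothelial genes. The selection limits on Cd3e, Cd79a, Dcn and the C1q genes bear on the T cell, B cell, fibroblast and macrophage lists. Low sums of those lists were thus partly set in advance. Monocyte genes summed to 1311 and 877 CPM in members and to 1837 and 1492 CPM in Cd209a cells. Fibroblast genes summed to 418 and 305.5 CPM in members and to 555 and 404 CPM in Cd209a cells. B and plasma cell genes summed to 212 and 113 CPM in members and to 112 and 60.0 CPM in Cd209a cells, mostly Ighm, whose log2 ratios were 0.92 (0.66 to 1.18) and 0.91 (0.25 to 1.59), with Jchain and Mzb1 at 0 in members of both libraries.

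Among 21 measured genes of class I presentation and cross-presentation, 5 were higher in both libraries (Tap1, Tap2, Tapbpl, Psmb9 and Wdfy4) and 1 was lower, with medians of 0.085 and 0.16. The peptide transporter genes Tap1 and Tap2 had log2 ratios of 1.10 (0.84 to 1.36) and 1.62 (1.29 to 1.96) in the control, and 1.92 (1.36 to 2.51) and 2.25 (1.66 to 2.88) in the KO library. Psmb9, a subunit of the immunoproteasome, had 2.01 (1.79 to 2.24) and 2.81 (2.36 to 3.29). The class I heavy chain gene H2-K1 was lower, at −0.59 (−0.71 to −0.47) and −0.40 (−0.59 to −0.22), under 2-fold. The gene past 2-fold lower was Cybb, a subunit of the phagocyte oxidase, with 139 UMIs against 1013 and 20 against 254.

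Of 13 measured class II genes none was past 2-fold higher in both libraries and 4 were lower (H2-DMb2, Ctss, Ifi30 and Lgmn), with medians of −0.39 and −0.38. H2-Aa, a class II chain, had 8754 CPM in control members and 11606 CPM in Cd209a cells, and 8846 and 11521 CPM in the KO library. The cathepsin gene Ctss, which trims the class II invariant chain, had log2 ratios of −1.11 (−1.24 to −0.99) and −1.58 (−1.81 to −1.36).

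Among the chemokines, cytokines and receptors, Cxcr3, Cxcl9 and Kit were past 2-fold higher in both libraries, and Ccr1, Ccl6, Ccl9, Ccl17, Ccl22 and Csf1r were past 2-fold lower. Cxcl9, a ligand of CXCR3, had 80 UMIs against 19 and 51 against 2. Of 10 measured genes of mature dendritic cells, Cd86, a costimulatory ligand, was higher and Ccl22, Ccl17 and Il4i1 were lower, with medians of −0.88 and −0.39. A UMI of Ccr7, the receptor that guides mature cells to lymph nodes, was found in 3 control members and no KO member. Of 16 measured transcription factors Irf8 and Id2 were higher and Irf4 and Zeb2 lower, with medians of −0.23 and −0.15.

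Medians of the remaining lists follow in brackets, control library first, against −0.059 and −0.031 over all measured genes. Of 13 measured glycolysis genes none was higher and Eno1 and Slc16a3 were lower (medians −0.30 and −0.062). Of 10 measured interferon-stimulated genes Isg15 was lower (−0.28 and −0.47), and of 15 immediate early genes, which tissue digestion can induce, Atf3 was lower (−0.36 and −0.31). Of 14 measured S phase genes none was past 2-fold in both libraries (0.093 and 0.89). Of 12 measured G2 and M phase genes Cenpf, Kif11 and Tacc3 were higher (0.66 and 2.21). These ratios rested on few cells. Over the 20 listed G2 and M phase genes, a single control member held 421 of 1401 UMIs. Single KO members held 241 and 169 of 475. For Cenpf, 54 of 90 control and 15 of 17 KO UMIs lay in the top cell. Medians per cell of the list were 0.72 UMIs per 10000 in control members and 0.69 in control Cd209a cells. In the KO library they were 0.59 and 0. At 3000 UMIs per cell, at least 3 UMIs of G2 and M phase genes were found in 12.0% of control members (6.12% to 20.4%) and 12.5% of KO members (2.66% to 32.4%), against 7.32% (3.84% to 12.4%) and 3.45% (0.087% to 17.8%) of Cd209a cells. The intervals overlapped in each library. Before this thinning the shares were 26.1% and 28.6% of members and 17.4% and 9.68% of Cd209a cells. Without the members that carried Cd209a, some list counts past 2-fold in both libraries changed. Higher were then 7 class I, 1 S phase and 5 G2 and M phase genes. Lower were 4 mature, 3 transcription factor, 2 immediate early, 6 macrophage and 1 monocyte genes.

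Members were then compared between the libraries. Pgam1 itself, a glycolytic enzyme gene on chromosome 19 from 41911923 to 41918660, had 167 UMIs in control members (126 CPM, 108 to 147) and 80 in KO members (151 CPM, 120 to 188). Between libraries its log2 ratio, KO over control, came to 0.26 (−0.15 to 0.65), an interval that includes 0. In Cd209a cells it had 127 CPM and 146 CPM. Counts are per gene and from 3′ ends, so they do not show whether exons were deleted.

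Of 4619 genes with at least 50 UMIs over the members of both libraries, 60 (1.30%) were higher in KO members by a factor of 2 or more and 138 (2.99%) were lower by as much, with a median log2 ratio of −0.011. Without the members that carried Cd209a, 57 genes were higher (40 of them in the first count) and 94 lower (81). Single cells weighed heavily on these counts. Of the 60 higher genes, 9 had over 50% of their KO UMIs in 1 cell, and of the 138 lower genes 10 had over 50% of their control UMIs in 1 cell and 19 had over 50% in the 16 cells with Cd209a. Leaving out the top cell of each gene in each library, also chosen after seeing the data, gave 34 higher and 277 lower genes. The median of all genes moved to −0.16. The UMI totals of the groups were kept in full, so that each gene lost the share held by its top cell. Over all measured genes the median of that share was 5.77% in the control library and 14.8% in the KO library.

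Of 22 measured type 1 genes, Itgae was past 2-fold higher and Snx22 past 2-fold lower in the KO library, and the median log2 ratio was 0.060. Over all 4619 genes the shares were 1.30% higher and 2.99% lower. Itgae had 61 UMIs in 23 control cells and 49 in 13 KO cells, a log2 ratio of 1.002 (0.43 to 1.57), which was 0.83 (0.26 to 1.40) without the members that carried Cd209a. Snx22 had 120 UMIs in 57 control cells and 24 in 11 KO cells, a log2 ratio of −1.004 (−1.70 to −0.36), or −1.18 without those members. Irf8 had a log2 ratio of 0.14 (0.04 to 0.24), which was −0.0060 (−0.10 to 0.090) without them. Tlr3 had 0.16 (−0.11 to 0.43), Cadm1 0.14 (−0.14 to 0.41) and Naaa 0.054 (−0.059 to 0.17). Ifi205 was higher, at 0.72 (0.50 to 0.94), under 2-fold.

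Of 16 measured type 2 genes, 4 were past 2-fold lower in KO members (Itgam, Irf4, Clec10a and Tmem176a). Without the members that carried Cd209a these 4 fell under the minimum of 50 UMIs, with 4 control and 8 KO UMIs for Itgam and 14 and 7 for Tmem176a. Irf4 had 54 UMIs in control and 3 in KO members, a log2 ratio of −2.85 (−5.17 to −1.23), and 13 and 3 UMIs without those members, a ratio of −0.99 (−3.45 to 0.87). Clec10a had 106 and 4 UMIs, and 2 and 2 without them. Mrc1, the mannose receptor, had 58 and 1 UMIs, and 7 and 0 without them. Cd209d had 87 and 0, and 0 and 0 without them. Among the transcription factors Irf4, Zeb2, Tcf4 and Bcl11a were past 2-fold lower, and without those members Tcf4 (−1.08, −1.71 to −0.49) and Bcl11a (−1.49, −2.27 to −0.78) still were. Zeb2 then had 38 and 2 UMIs, under the minimum, with a log2 ratio of −2.54 (−6.22 to −1.17). Tcf4 and Bcl11a are also known from plasmacytoid dendritic cells. The list of 8 markers of those cells summed to 244 CPM in control and 73.6 CPM in KO members, with up to 85.4 UMIs per 10000 in a single control cell and Cox6a2 and Klk1 at 0 in both libraries, and its part in the difference was not tested.

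The 10 largest ratios were those of Hspa1b, Serpinb6b, Hspa1a, Dusp2, Il1b, Bcl2a1a, Erdr1, Actn1, Ccdc86 and Fdps. The heat shock gene Hspa1b had 7 UMIs in control members and 75 in 5 KO cells, 40 of them in 1 cell. Il1b, an inflammatory cytokine, had 57 and 122 UMIs, 56 of the latter in 1 cell, with a log2 ratio of 2.42 (1.95 to 2.90). Fdps, an enzyme of sterol synthesis, had 25 and 32 UMIs, 25 of the latter in 1 cell. More evenly spread were Bcl2a1a, a gene of the BCL2 family with near-identical copies, with 126 UMIs in 45 control cells and 214 in 23 KO cells (2.08, 1.76 to 2.41), and Erdr1, with 32 UMIs in 26 control cells and 53 in 22 KO cells (2.05, 1.39 to 2.73). The counts of Bcl2a1a may be split among its copies. The chemokine gene Ccl17, also past 2-fold higher, had 278 KO UMIs, of which 274 lay in 1 cell.

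The 10 smallest ratios were those of Timp3, Cd209d, Lpl, Clec10a, Mrc1, Irf4, Zeb2, Fabp4, Rgs5 and Hbb-bt. Of these, 5 had most of their control UMIs in 1 cell: 67 of 88 for Timp3, 70 of 81 for Lpl, 129 of 208 for Fabp4, 45 of 58 for Rgs5 and 311 of 377 for Hbb-bt. Genes of other cells are among them, Fabp4 and Lpl being known from adipocytes and endothelial cells, Rgs5 from pericytes and Hbb-bt from red cells. The haemoglobin gene Hbb-bs was at 1314 CPM in control and 356 CPM in KO members, but 1193 of its 1738 control UMIs lay in 1 cell. Without the top cell of each library it was at 416.7 and 352 CPM, and its median per cell was 2.95 and 3.27 UMIs per 10000. The part of RNA from other cells in these differences was not tested.

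**Figure D5:**
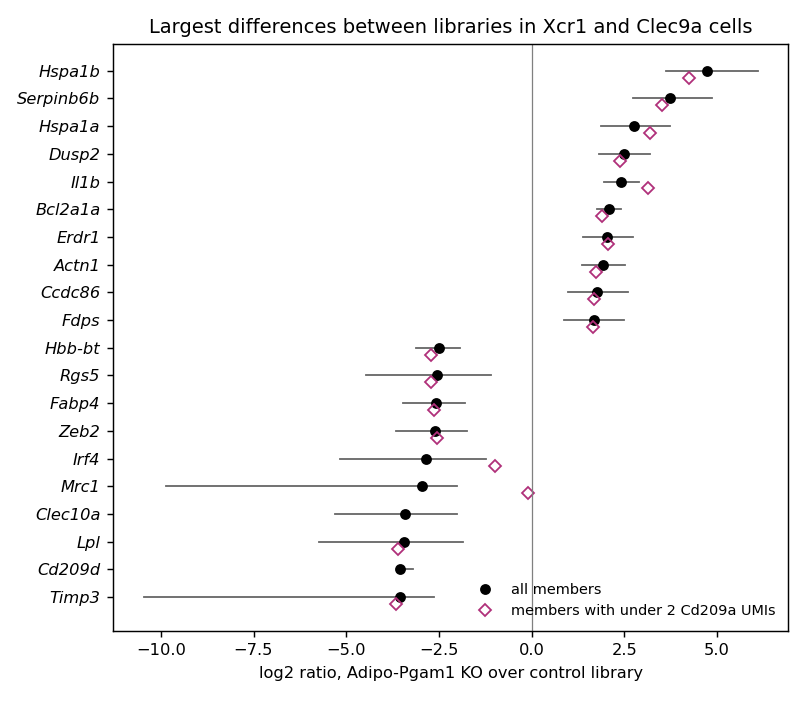
Log2 ratio of KO to control CPM in members for the 10 largest and the 10 smallest ratios among 4619 genes, with exact conditional 95% intervals (black), and the ratio without members that carried at least 2 Cd209a UMIs (open diamonds, absent where both counts were at most 3). Mrc1 moves from −2.96 to −0.10 and Irf4 from −2.85 to −0.99, and Clec10a and Cd209d have no diamond.

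The other lists were counted in the same way, beside 1.30% higher and 2.99% lower over all 4619 genes. The counts higher and lower in KO members were 2 and 0 of 6 measured mature genes (Ccl17 and Marcksl1), 0 and 1 of 20 class I genes (Cybb), 0 and 0 of 13 class II genes, 3 and 1 of 17 chemokines, cytokines and receptors, 0 and 0 of 10 glycolysis genes and 0 and 0 of 15 immediate early genes. The median log2 ratios of these lists were 0.64, 0.26, 0.035, 0.14, 0.26 and 0.0050. Of the S phase genes, Rrm2 and Uhrf1 were past 2-fold higher among 11 measured, and of the G2 and M phase genes Ube2c and Cenpf were lower among 14, with medians of 0.43 and −0.22. These rested on few cells, with 64 of 128 control UMIs of Ube2c and 54 of 90 of Cenpf in 1 cell, and the 43 KO UMIs of Rrm2 in 3 cells and the 35 of Uhrf1 in 5. Of 6 measured interferon-stimulated genes Mx1 was lower, with a median of 0.055, and of 5 macrophage markers Mrc1 and Cd163 were lower, with a median of −0.95. Without the members that carried Cd209a, the lower genes Cybb, Ccl9, Mrc1 and Cd163 fell under the minimum of 50 UMIs. Cybb then had 39 control and 5 KO UMIs (−1.84, −3.54 to −0.50) and Ccl9, the lower chemokine, 25 and 2 (−1.94, −5.64 to −0.52), while Mrc1 had 7 and 0 and Cd163 had 2 and 0. Cenpa and Apoe were past 2-fold lower, and the monocyte marker Plac8 past 2-fold higher, without them but not with them.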

How the data were processed

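Gene expression of single SVF cells from gWAT was measured by droplet sequencing of transcript 3′ ends in 1 littermate control and 1 Adipo-Pgam1 KO library. The authors deposited raw UMI counts per gene and barcode, made with Cell Ranger 3.0.1, and the submitters' processing notes also name mm10, Seurat 3.1.5 and R 4.0.1. The files hold 28692 genes, with 42859406 UMIs (control library) and 13821581 UMIs (KO library).

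For each group and library the UMIs of its cells were added up and expressed as CPM, with exact Poisson intervals for levels, exact Clopper-Pearson intervals for shares and exact conditional binomial intervals for ratios, all at 95%. Counts under 3 were set to 3 in ratios, and no ratio is given where both counts were at most 3. Depth limits precision, and a gene with 50 UMIs carries a wide interval. No p-value was computed, there being 1 library per genotype. Genes named are those of the lists, Pgam1, the genes of the selection, the 15 largest and 15 smallest ratios of members to Cd209a cells in the control library, and the 10 largest and 10 smallest ratios between libraries. The members and lists were chosen with earlier results of these data known. Doublets were not removed in the values reported, and Scrublet scores (scanpy 1.11.5) were used as an alternative, with a share of 0.8% removed per 1000 barcodes. Gene positions come from a GENCODE annotation of GRCm38. The count and median of the chemokine, cytokine and receptor list against Cd209a cells are not reported here. The steps were tested on simulated data. Alternatives changed the barcode filter, marker limits, doublets, mature cells, scaling (edgeR 4.0.16 TMM and median-of-ratios factors, in R 4.3.3), cell weight, depth and count minimum, and 2 were added after seeing the data. Figures were drawn with matplotlib 3.10.9, and pandas 2.3.3, scipy 1.17.1 and numpy 2.4.6 ran under Python 3.11.15.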

Additional observations from a re-analysis of the deposited data

How the results depend on the processing

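No paired analysis was possible because each genotype had 1 library and no test was run. Of the shares and counts over all settings, 74 moved by less than their interval or 1.5 times and 19 moved further. The share of kept barcodes in the control moved from 2.37% to 1.56% with limits of 200 genes and 20% mitochondrial UMIs and to 4.19% with limits of 1000 genes and 5%, and in the KO library from 2.92% to 1.93% and 4.42%, where the number of kept barcodes changed. Genes higher in members than in Cd209a cells in both libraries (204) were 38 at 3000 UMIs per cell, where only 1124 genes were measured, and 118 with a minimum of 100 and 40 UMIs. Genes lower in both (251) were 61 and 167, and 388 with a minimum of 20 and 10 UMIs. Genes higher in KO members (60) were 98 with the mean of per-cell CPM, 17 at 3000 UMIs per cell, 16 with a minimum of 100 UMIs, 178 with 20 and 34 without the top cell of each gene. Genes lower in KO members (138) were 261, 42, 49, 524 and 277. Apart from the minimum and the number of measured genes, the cause was not tested. The log2 ratio of Fdps reversed to −0.40 without its top cell, which held 25 of its 32 KO UMIs. The median of the Toll-like and C-type lectin receptors reversed in both libraries, to −2.28 and −2.69 with limits of 1000 genes and 5% mitochondrial UMIs, −0.32 and −0.40 with marker limits of 3 UMIs, −1.70 and −1.99 without C1q UMIs, −2.40 and −2.23 without high doublet scores, −2.17 and −2.23 with a minimum of 100 and 40 UMIs, and −0.30 and −0.76 with 20 and 10, since its members lie far on both sides of 0 and the number measured changed. Of the other medians of lists 504 moved by less than their SD between the libraries (0.5 for ratios between libraries) and 107 further, and of the ratios of named genes 844 and 83. With median-of-ratios factors 37.3% in place of 30.3% of the genes past 2-fold between libraries were higher in KO members, and without the top cell of each gene 10.9%.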
